A study of Mus musculus with 6 samples.

Results

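The genes described here carry cells through mitosis, the stage of the cell cycle in which duplicated chromosomes are separated into daughter cells. They are 56 genes taken as a fixed list of mitotic kinases, cyclins, checkpoint proteins, kinetochore proteins, kinesins, condensin subunits and cytokinesis proteins, of 19937 genes measured in all. This list and the further lists below were chosen with earlier results of these data known, so their direction is not independent evidence. A gene was read from the probe set, a group of probes summarised to 1 value, that is annotated to its symbol alone and has the highest mean over the 6 arrays. On that rule 55 of the 56 genes were measured. Ccnb1, which encodes cyclin B1, had no such probe set in the annotation used and is not analysed here.

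The RNA came from mammary epithelial organoids of FVB mice named ErbB3 DOX-KO, in which doxycycline (DOX) induces loss of Erbb3, a receptor tyrosine kinase that pairs with other ErbB receptors. Glands of age-matched females were digested, and the organoids were grown for 14 days in Matrigel, a basement-membrane gel, with 5 µM DOX (DOX organoids, 3 arrays) or with none (control organoids, 3 arrays). All 6 cultures carry the same ErbB3 DOX-KO genotype, and no DOX-treated culture of another genotype is analysed here. An effect of the drug itself and one of Erbb3 loss cannot be told apart. The promoter and the cell type that drive the inducible knockout are not given in the sources used here, nor is it said whether the 3 replicates came from separate mice. The p-values then measure the spread between these 6 cultures.

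Each value below is a log2 expression level as deposited, and each difference is DOX minus control on that scale, so that −1 means 2-fold lower. Tests are limma fits over all 19937 genes with Benjamini-Hochberg adjustment, and a gene was called at an adjusted p under 0.05. Erbb3 itself read 10.36, 9.31 and 9.82 in DOX replicates 1, 2 and 3, against 9.78, 9.71 and 9.69 in control replicates 1, 2 and 3, so that DOX replicates 1 and 3 lay above the controls and replicate 2 below them. The difference was 0.10 (95% interval −0.58 to 0.79) and did not pass (adjusted p = 0.845 by limma). Without DOX replicate 2 it was 0.37 and did not pass either (limma adjusted p = 0.105). The labels do not say whether the probe set lies in the deleted part. Lower Erbb3 RNA was thus not seen on the DOX arrays, and why was not tested. DOX replicate 2 stood apart. Its correlation with the other arrays across genes was 0.816 to 0.865, against at least 0.963 among the other 5 arrays, and its levels were drawn together, with a slope of 0.548 on the control means. Results are therefore given with all arrays and again without DOX replicate 2, where 2 DOX arrays remain. The epithelial markers Krt8, Krt18, Epcam and Cdh1 were high on both kinds of array, with group means of 10.27 to 12.64, while the basal keratins Krt5 and Krt14 averaged 5.24 to 6.61.

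Dividing cells make most mitotic proteins only late in the cycle. Their genes are switched off in resting cells by the DREAM complex and switched on before mitosis by MuvB together with B-Myb and FoxM1, often through a promoter element named the cell cycle genes homology region (CHR). Cdk1 with a B-type cyclin then starts mitosis, Aurora and Polo kinases build the spindle, and kinetochores join chromosomes to it. A checkpoint holds back the anaphase-promoting complex (APC/C) until every chromosome is attached. In the mammary gland these genes mark the cycling cells of the epithelium.

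Mitosis genes fell together in DOX organoids. Of the 55 measured genes 49 fell, none rose and 6 did not pass, although all 55 were lower at an unadjusted p under 0.05. Over all genes 2.26% were called lower and 0.12% higher at the adjusted threshold. The share of all genes at the unadjusted threshold was not counted, so unadjusted counts here and below stand without it. The median difference of the 55 genes was −2.17, which is 4.51-fold lower, beside a median of 0.02 over all 19937 genes. Of the 49 genes that fell, 48 fell at least 2-fold, 35 at least 4-fold and 12 at least 8-fold. Over all genes 2.19% were called lower by at least 2-fold. Of the 19937 genes 183 were called lower by at least 4-fold and 51 by at least 8-fold. The differences of the 55 genes ran from −4.01 for Top2a to −0.67 for Pttg1, and all 55 were negative.

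Without DOX replicate 2 all 55 genes fell, with a median difference of −2.32 beside 0.01 over all genes. That fit called 14.3% of all genes lower and 12.3% higher, so it called far more genes of every kind. Of the 55 genes 51 fell at least 2-fold there, against 3.41% of all genes lower and 1.42% higher by that much. The highest limma adjusted p among the 55 was 0.00313, for Pttg1. Leaving out other arrays lowered the count, to 43 genes without DOX replicate 1, 32 without DOX replicate 3, and 21, 20 and 14 without control replicates 1, 2 and 3. Calls fell over all genes too, with 264, 188, 83, 78 and 61 of 19937 called lower in the same order, beside 450 with all arrays. All 55 differences were negative in each of those fits. Over all alternatives in the processing 36 of the 49 calls were lost at least once, and 13 were made each time the gene was fitted. The calls made least often were those of Incenp and Gtse1, in 7 of 14 alternatives, and of Cdca8, Cdc25c and Melk, in 7 of the 13 that kept them. Aurka and Mad2l1 were called in 8 of 14, and Foxm1, Kif18a and Nusap1 in 8 of 13.

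Levels of DOX and control organoids barely met. All 3 DOX arrays lay below all 3 control arrays for 54 of the 55 genes, while this held for 20.3% of all genes. Ndc80 was the exception, through DOX replicate 2. Without that array the groups were apart for all 55 genes, against 26.2% of all genes. Group means of the 55 genes ran from 3.62 to 6.96 in DOX organoids and from 6.14 to 9.32 in control organoids. The spread between control arrays was small, with a median SD of 0.11 per gene, and that between DOX arrays was 0.29.

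**Figure D1:**
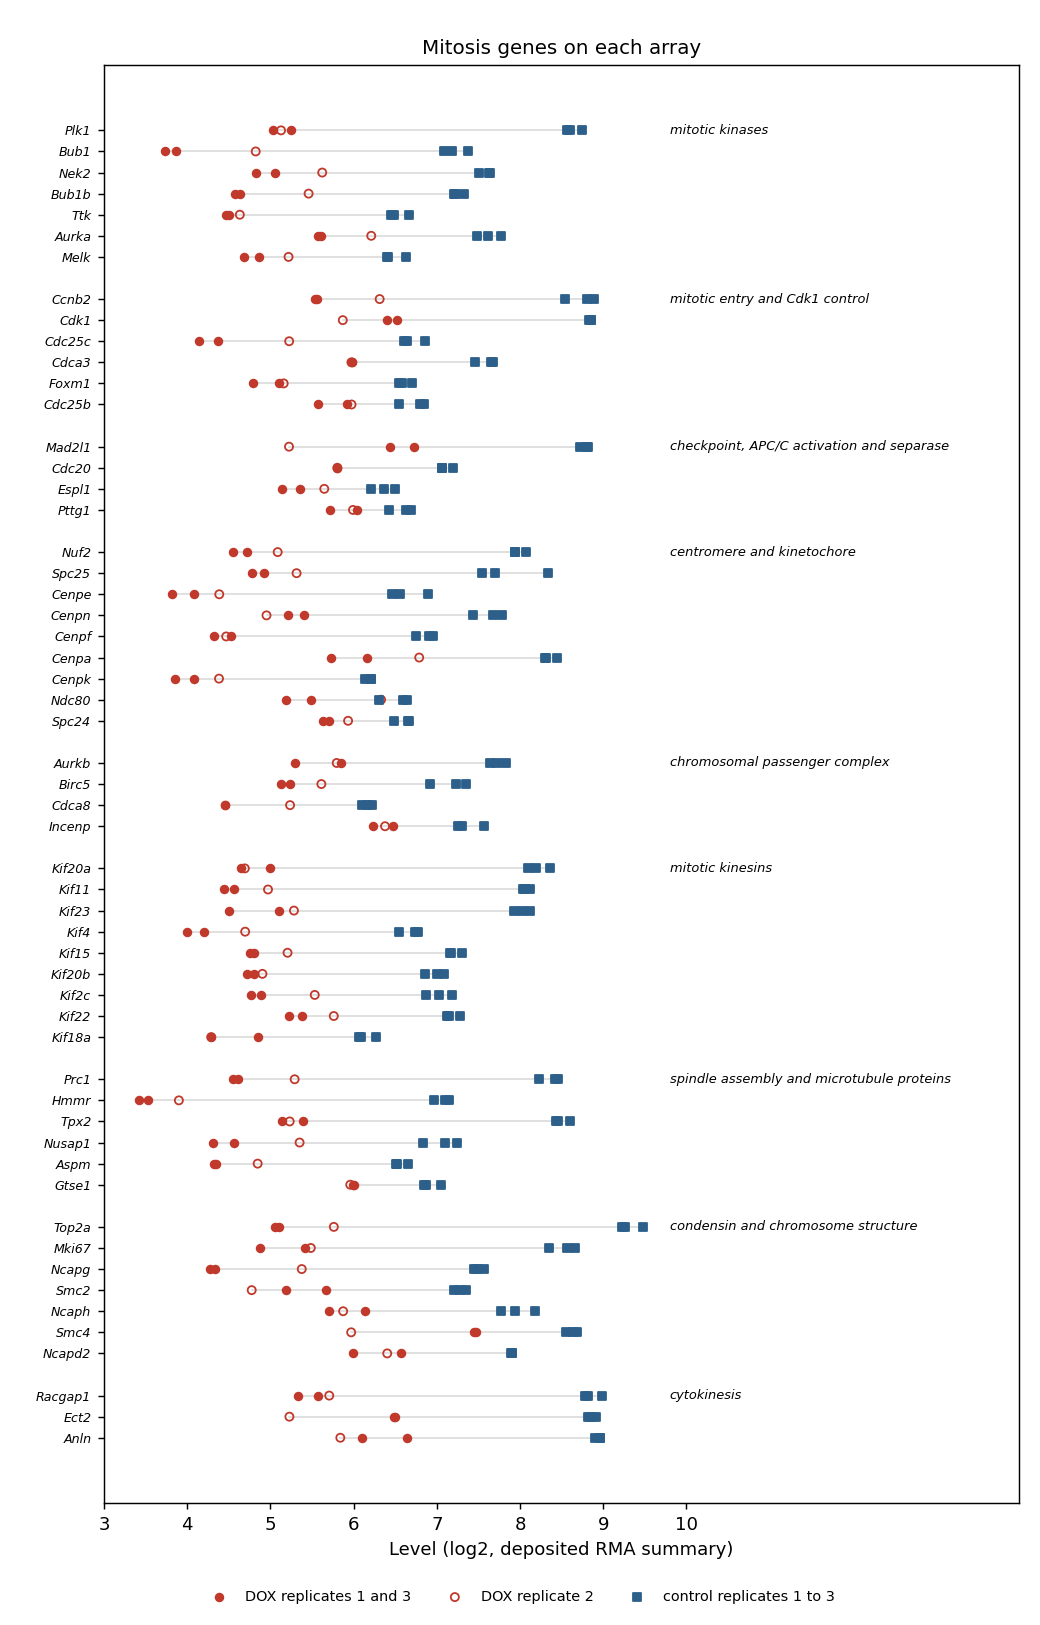
Level of each of the 55 measured mitosis genes on each array (x axis, log2), with genes in rows grouped by role. Red points are DOX arrays (replicate 2 open) and blue squares are control arrays. The red points lie left of the blue squares in every row except that of Ndc80.

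The 7 mitotic kinases all fell, with differences of −3.50 to −1.56 and a median of −2.36. Plk1, the Polo-like kinase that matures centrosomes and helps build the spindle, read 5.04, 5.13 and 5.25 in DOX replicates 1, 2 and 3, against 8.56, 8.60 and 8.74 in control replicates 1, 2 and 3. Those DOX values lie within 0.25 of each other and more than 3 below every control, a difference of −3.50 (SE 0.17, limma adjusted p = 0.00155), or 11.3-fold lower. Bub1, a checkpoint kinase at kinetochores, read 3.87, 4.82 and 3.73 on the DOX arrays, against 7.19, 7.09 and 7.37 on the control arrays. DOX replicate 2 was the highest DOX array for it and still far below the controls, with a difference of −3.07 (SE 0.32, limma adjusted p = 0.00674) and of −3.42 without that array. Melk, a kinase found in dividing and progenitor cells, had the smallest difference of the group, −1.56 (SE 0.21, limma adjusted p = 0.0159), from 4.86, 5.22 and 4.69 on the DOX arrays, against 6.40, 6.42 and 6.63 on the control arrays. Its DOX arrays too lay wholly below the controls. The kinases between these extremes were Nek2, which separates centrosomes (−2.42), Bub1b, which encodes the checkpoint protein BubR1 (−2.36), and Aurka, the Aurora kinase of spindle poles (−1.82). Ttk, also known as Mps1, averaged 4.53 ± 0.09 in DOX organoids and 6.53 ± 0.12 in controls (SD, n = 3 each), and it fell too.

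Of 6 measured genes of mitotic entry and Cdk1 control, 5 fell and Cdc25b did not pass. Ccnb2, which encodes cyclin B2, read 5.55, 6.31 and 5.54 on the DOX arrays, against 8.81, 8.54 and 8.89 on the control arrays. Its difference was −2.94 (SE 0.27, limma adjusted p = 0.00426), and no array of one group came near the other. Cdk1, the kinase that B-type cyclins activate, read 6.40, 5.87 and 6.52 on the DOX arrays, against 8.86, 8.83 and 8.86 on the control arrays. Control arrays were nearly equal there, and DOX replicate 2 was the lowest of the DOX arrays, with a difference of −2.59 (SE 0.22, limma adjusted p = 0.00361). The phosphatases that activate Cdk1 gave unlike values. Cdc25c fell by 2.12, with means of 4.58 ± 0.57 in DOX organoids and 6.70 ± 0.13 in controls (SD, n = 3 each). Cdc25b read 5.92, 5.98 and 5.58 on the DOX arrays, against 6.55, 6.79 and 6.85 on the control arrays, and although these groups did not overlap, its difference of −0.91 (SE 0.20, limma adjusted p = 0.0875) did not pass with all arrays and was −0.98 (SE 0.14, limma adjusted p = 4.49e-04) without DOX replicate 2. Foxm1, the transcription factor that activates many genes of this list, fell by 1.59. Cdca3, a trigger of mitotic entry, fell by 1.61.

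Among 4 genes that time the separation of chromatids, 2 fell and 2 did not pass. Mad2l1, the checkpoint protein that holds Cdc20 inactive, read 6.72, 5.22 and 6.44 on the DOX arrays, against 8.80, 8.82 and 8.72 on the control arrays. Its lowest DOX array was replicate 2, and its difference was −2.65 (SE 0.39) with that array and −2.20 without it. Cdc20, which activates the APC/C, read 5.80, 5.80 and 5.80 on the DOX arrays, against 7.06, 7.19 and 7.07 on the control arrays, the DOX arrays being equal to 2 decimals. That gave a difference of −1.30 (SE 0.16, limma adjusted p = 0.012). Espl1, which encodes separase, the protease that opens cohesin rings, read 5.35, 5.65 and 5.14 on the DOX arrays, against 6.21, 6.50 and 6.36 on the control arrays. Pttg1, which encodes the separase inhibitor securin, read 5.71, 5.99 and 6.05 on the DOX arrays, against 6.63, 6.70 and 6.42 on the control arrays. Groups did not overlap for either gene, but the differences of −0.98 (SE 0.21, limma adjusted p = 0.0775) and −0.67 (SE 0.19, limma adjusted p = 0.177) did not pass with all arrays. Without DOX replicate 2 both genes fell, with differences of −1.11 and −0.70.

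Centromere and kinetochore genes fell in 7 of 9 cases, with a median of −2.43. The 4 subunits of the NDC80 complex, which grips microtubule ends, split into a pair with large and a pair with small differences. Nuf2 read 4.55, 5.09 and 4.71 on the DOX arrays, against 8.07, 7.93 and 7.94 on the control arrays, and Spc25 read 4.77, 5.31 and 4.92 on the DOX arrays, against 8.33, 7.70 and 7.55 on the control arrays. Both fell, with differences of −3.20 (SE 0.20) and −2.86 (SE 0.28) and all DOX arrays more than 2 below the controls. Spc24 read 5.71, 5.93 and 5.64 on the DOX arrays, against 6.49, 6.66 and 6.66 on the control arrays, and Ndc80 read 5.18, 6.33 and 5.48 on the DOX arrays, against 6.64, 6.59 and 6.31 on the control arrays. On DOX replicate 2 Ndc80 lay above control replicate 3, which made it the only gene of the 55 whose groups overlapped. Neither Spc24 (−0.84, SE 0.18, limma adjusted p = 0.0787) nor Ndc80 (−0.85, SE 0.32, limma adjusted p = 0.312) passed with all arrays, and without DOX replicate 2 their differences were −0.93 (SE 0.11, limma adjusted p = 1.57e-04) and −1.18 (SE 0.14, limma adjusted p = 1.23e-04). The difference between the pairs was not tested. The other genes that fell were Cenpa, the centromeric histone (−2.13), the kinetochore motor Cenpe (−2.54), Cenpf, of the outer kinetochore (−2.43), and Cenpk and Cenpn, of the constitutive centromere-associated network (−2.08 and −2.44).

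All 4 genes of the chromosomal passenger complex fell. This complex corrects wrong attachments and later helps to place the cleavage furrow. Aurkb, its kinase, read 5.30, 5.80 and 5.85 on the DOX arrays, against 7.64, 7.73 and 7.83 on the control arrays, and Birc5, which encodes survivin, read 5.23, 5.61 and 5.13 on the DOX arrays, against 6.92, 7.36 and 7.23 on the control arrays. Both were lower on every DOX array, with differences of −2.08 (SE 0.21) and −1.84 (SE 0.22). Incenp, the scaffold, read 6.47, 6.38 and 6.23 on the DOX arrays, against 7.30, 7.25 and 7.56 on the control arrays, the smallest difference of the complex at −1.01 (SE 0.18, limma adjusted p = 0.0475). Cdca8, which encodes borealin, fell by 1.45 (limma adjusted p = 0.045). The calls of Incenp and Cdca8 lie close to the threshold.

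All 9 mitotic kinesins fell, with differences of −3.44 to −1.66 and a median of −2.29. Kif20a, a motor of the central spindle, read 4.65, 4.69 and 4.99 on the DOX arrays, against 8.19, 8.10 and 8.36 on the control arrays, and Kif11, which pushes spindle poles apart, read 4.56, 4.97 and 4.45 on the DOX arrays, against 8.11, 8.06 and 8.03 on the control arrays. Every DOX array lay at least 3 below every control for both genes, which were 10.8-fold and 10.6-fold lower (limma adjusted p = 0.00155 each). Kif18a, which damps chromosome movements at the spindle centre, read 4.85, 4.29 and 4.29 on the DOX arrays, against 6.27, 6.09 and 6.06 on the control arrays. It had the smallest difference of the kinesins, −1.66 (SE 0.22, limma adjusted p = 0.0156), with DOX replicates 2 and 3 alike and replicate 1 above them. The others that fell were Kif23, of centralspindlin (−3.06), the chromosome-bound motors Kif4 (−2.39) and Kif22 (−1.73), Kif15 (−2.29) and Kif20b (−2.17). Kif2c, which takes microtubule ends apart, fell by 1.96.

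Spindle assembly and microtubule genes fell in 6 of 6 cases, with a median of −2.78. Prc1, which bundles the microtubules of the central spindle, read 4.55, 5.29 and 4.61 on the DOX arrays, against 8.23, 8.42 and 8.46 on the control arrays. Hmmr, a spindle protein also known as RHAMM, read 3.53, 3.90 and 3.42 on the DOX arrays, against 7.15, 7.09 and 6.97 on the control arrays, the lowest DOX mean of all 55 genes. Their differences were −3.55 (SE 0.25, limma adjusted p = 0.00205) and −3.45 (SE 0.20, limma adjusted p = 0.00155), and Prc1 was 11.7-fold lower. Tpx2, the activator of Aurora A (−3.24), the microtubule binder Nusap1 (−2.32) and Aspm, of spindle poles (−2.06), fell as well. Gtse1, a microtubule-binding protein, read 6.00, 5.96 and 6.00 on the DOX arrays, against 6.85, 6.87 and 7.06 on the control arrays. Its DOX arrays were nearly equal, and its difference of −0.94 (SE 0.17, limma adjusted p = 0.0438) was the only called one of the 49 under 2-fold.

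Among 7 genes of chromosome structure, 6 fell. Top2a, the DNA topoisomerase that untangles sister chromatids, read 5.05, 5.76 and 5.11 in DOX replicates 1, 2 and 3, against 9.48, 9.22 and 9.26 in control replicates 1, 2 and 3. It had the largest difference of the 55 genes, −4.01 (SE 0.25, limma adjusted p = 0.00167), which is 16.1-fold lower. A further probe set of Top2a lay near the bottom of the scale in both groups, at 2.13, 2.19 and 2.14 on the DOX arrays and 2.76, 2.60 and 2.35 on the control arrays, a difference of −0.42. The mean over both probe sets gave −2.21 (limma adjusted p = 0.004). The other 54 genes had 1 probe set each. Mki67, which encodes the proliferation marker Ki-67 that coats mitotic chromosomes, read 4.88, 5.49 and 5.41 on the DOX arrays, against 8.57, 8.35 and 8.66 on the control arrays. That is 9.63-fold lower, with DOX arrays more than 2.8 below the controls.

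Condensin I, which compacts chromosomes, fell in 4 of its 5 subunits. Their differences were −2.84 for Ncapg, −2.06 for Ncaph, −2.07 for Smc2 and −1.58 for Ncapd2, which read 6.57, 6.40 and 5.99 on the DOX arrays, against 7.90, 7.89 and 7.90 on the control arrays. Control arrays of Ncapd2 were nearly equal, and its DOX arrays spread over more than 0.5. Smc4 read 7.48, 5.97 and 7.44 on the DOX arrays, against 8.68, 8.55 and 8.64 on the control arrays. DOX replicates 1 and 3 were nearly equal there and replicate 2 lay about 1.5 below them, so that the difference was −1.66 (SE 0.42, limma adjusted p = 0.134) with all arrays and −1.16 (SE 0.11, limma adjusted p = 2.24e-05) without replicate 2. Smc2 and Smc4 also serve condensin II, whose own subunits Ncapd3, Ncapg2 and Ncaph2 had differences of −0.92, −1.51 and −0.74. None of these 3 passed with all arrays (limma adjusted p = 0.201, 0.0627 and 0.142), although all 3 were lower at an unadjusted p under 0.05. All 3 fell without DOX replicate 2 (−0.66, −1.59 and −0.61), in a fit that called 14.3% of all genes lower.

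The 3 cytokinesis genes fell, with a median of −2.79. Racgap1, which with Kif23 forms the centralspindlin complex, read 5.57, 5.71 and 5.33 on the DOX arrays, against 8.82, 8.99 and 8.78 on the control arrays. Its difference was −3.33 (SE 0.19, limma adjusted p = 0.00155). Ect2, the exchange factor that centralspindlin brings to the cell middle, read 6.48, 5.23 and 6.50 on the DOX arrays, against 8.85, 8.81 and 8.92 on the control arrays, with DOX replicate 2 lowest. Anln, a scaffold of the contractile ring, read 6.65, 5.84 and 6.10 on the DOX arrays, against 8.96, 8.90 and 8.96 on the control arrays. For these 2 genes the differences were −2.79 (SE 0.36) and −2.75 (SE 0.24) with all arrays and −2.37 and −2.57 without DOX replicate 2.

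Ranks within each array do not change where levels are drawn together without a change in the order of genes. The correlation of DOX replicate 2 with the other arrays was 0.816 to 0.865, so its order may differ too, and its ranks are not free of that. The median percentile of the 55 genes among all genes of an array was 37.1, 29.1 and 36.1 on DOX replicates 1, 2 and 3, against 67.4, 68.5 and 68.3 on control replicates 1, 2 and 3. On this measure too, 54 of the 55 genes had all DOX arrays below all control arrays, which held for 18.4% of all genes. Top2a stood at percentiles of 36.9, 42.2 and 35.5 on the DOX arrays and 93.4, 91.7 and 91.7 on the control arrays. Hmmr stood at 8.4, 4.8 and 5.8 on the DOX arrays and 65.4, 64.7 and 62.3 on the control arrays, close to the bottom in DOX organoids. Ndc80 was again the gene that overlapped, at 39.9, 61.0 and 43.9 on the DOX arrays and 58.6, 57.8 and 54.3 on the control arrays. All 55 genes had control means above the median of all genes, and 12 had DOX means above it.

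**Figure D2:**
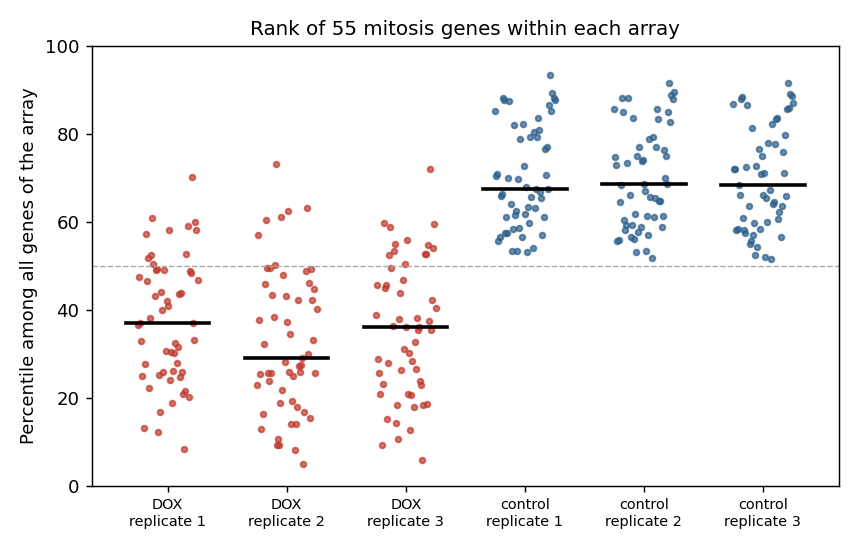
Percentile of each of the 55 mitosis genes among the 19937 genes of the same array (y axis, 100 is the highest), with 1 column of points per array, DOX in red and control in blue. Black bars are medians, at 37.1, 29.1 and 36.1 on the DOX arrays and 67.4 to 68.5 on the control arrays.

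On DOX replicate 2 genes with high control levels lay lower as a whole, and this touches the mitosis genes. All genes were divided by control level into 10 groups of equal size, and all 55 mitosis genes lay in the upper 5 groups. In those groups the median difference of all genes on DOX replicate 2 ran from −0.26 at the lower levels to −1.59 at the highest. On DOX replicates 1 and 3 the same medians lay between −0.12 and 0.04. In the other groups, of low control level, the median on DOX replicate 2 ran from 0.30 to 0.93. Set against the median of its own level group, a mitosis gene had a median gap of −2.30 on DOX replicate 1, −1.29 on replicate 2 and −2.26 on replicate 3. Below that median lay 55, 54 and 55 of the 55 genes on replicates 1, 2 and 3. With levels matched in this way the gap was smaller on DOX replicate 2 than on the other DOX arrays. Before that matching, DOX replicate 2 was the highest of the DOX arrays for 36 genes and the lowest for 10.

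**Figure D3:**
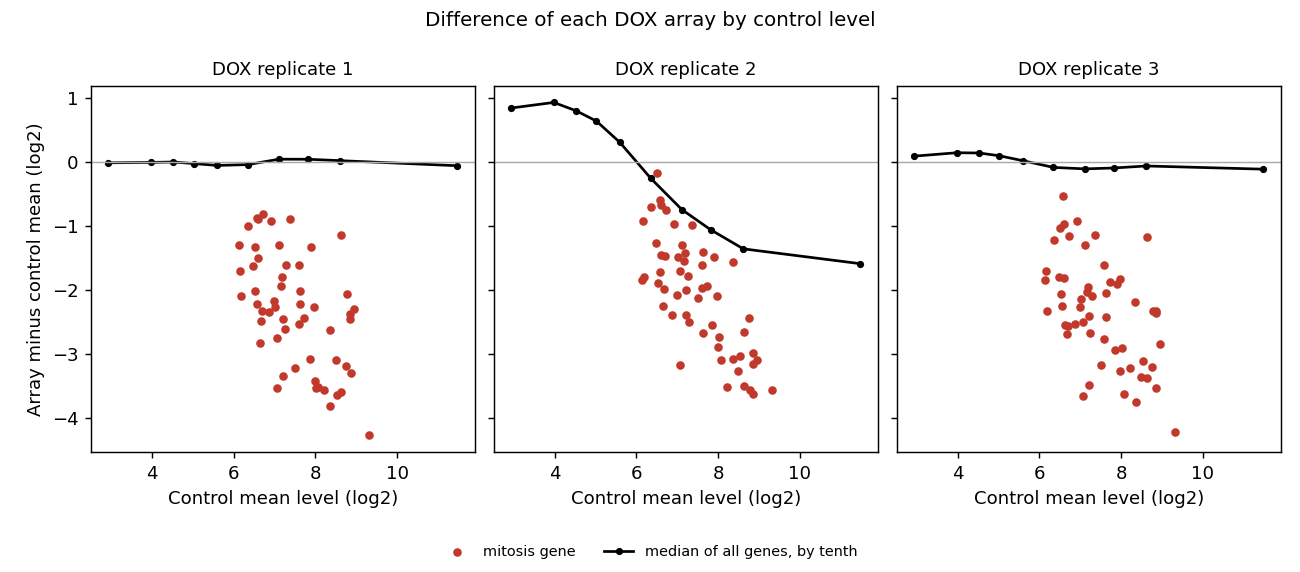
Difference of each DOX array from the control mean (y axis, log2) against the control mean level (x axis, log2), 1 panel per DOX array. Red points are the 55 mitosis genes, and the black line joins the medians of all genes in 10 groups of control level, which slope down to −1.59 on DOX replicate 2 and stay near 0 on the others.

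Mitosis genes with higher control levels had more negative differences. Across the 55 genes, which share the same 6 arrays and are not independent of each other, the correlation between control mean and difference was −0.65, and −0.55 without DOX replicate 2. The control mean enters both measures. Over all genes the same correlations were −0.58 and −0.17. DOX means of the 55 genes varied less than control means, with an SD across genes of 0.70 for DOX means and 0.86 for control means. The array gives no detection call, and where a DOX value lies near the bottom of the scale the difference may be understated.

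The bulk RNA of a culture cannot tell fewer cells in mitosis from less of these RNAs per cell. Markers of other cell types were read from lists of 8 fibroblast, 5 endothelial, 5 leukocyte and 4 adipocyte genes, of which 0 of 22 passed in limma with all arrays and 1, a leukocyte gene, was higher at an unadjusted p under 0.05. Fibroblast markers summed, on the linear scale, to 308 to 602 in DOX and 323 to 355 in control organoids. Endothelial markers summed to 124 to 238 in DOX and 120 to 134 in control organoids. Leukocyte markers summed to 354 to 450 in DOX and 266 to 291 in control organoids, and adipocyte markers to 109 to 174 in DOX and 105.0 to 109.5 in control organoids. These ranges overlap except for leukocyte markers, and RMA values have no 0 at which a marker could be called absent. On DOX replicate 2, median differences from the control mean were 0.763, 0.745, 0.805 and 0.826 for fibroblast, endothelial, leukocyte and adipocyte markers. Genes with low control levels lay higher as a whole on that array. Cd68 had the highest mean of the leukocyte markers, 7.53, and read 8.32, 6.72 and 8.29 on the DOX arrays, against 7.25, 7.19 and 7.43 on the control arrays. The epithelial markers summed to 7817 to 11842 in DOX and 16729 to 17121 in control organoids, and none of the 6 passed with all arrays, while 3 were lower at an unadjusted p under 0.05. The same sum for the 55 mitosis genes was 2302 to 2537 in DOX and 11725 to 12022 in control organoids. Without DOX replicate 2, Krt8, Krt18 and Krt14 fell (−0.74, −0.64 and −1.06), and Ptprc and Cd68 rose (0.38 and 1.01). The other leukocyte genes, Adgre1 (−0.22), Csf1r (−0.08) and Cd3e (0.08), did not pass there. Neither did Krt5, Epcam, Cdh1 or any fibroblast, endothelial or adipocyte gene. That fit called 14.3% of all genes lower and 12.3% higher. The part of a change in cell types in the fall of the mitosis genes was not tested.

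A list of 68 other mitosis genes, 65 of them measured, had 36 lower and none higher, with a median difference of −1.44. Over all genes 2.26% were called lower and 0.12% higher with all arrays. Without DOX replicate 2 the list had 58 lower and 2 higher, beside 14.3% of all genes lower and 12.3% higher. The genes with the smallest adjusted p were Cenph, a kinetochore subunit (−2.72, SE 0.18), Zwilch, of the checkpoint complex RZZ (−2.64, SE 0.18), Ccna2, which encodes cyclin A2 (−4.02, SE 0.29), and Arhgap11a, a cytokinesis regulator (−2.68, SE 0.20). The 2 higher ones, named after their values were seen, were the kinetochore gene Zwint (0.71, SE 0.12, limma adjusted p = 0.00138) and Wee1, the kinase that restrains Cdk1 (0.67, SE 0.17, limma adjusted p = 0.0131). With all arrays their differences were 0.46 and 0.17 and did not pass.

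Constitutive partners of the mitotic machinery gave smaller median differences. Most of the APC/C and cohesin genes lay in groups 9 and 10 of the 10 groups of control level, the highest. The median difference of all genes in those groups was −0.48 and −0.60 with all arrays, and −0.02 and −0.09 without DOX replicate 2. The list medians below were not matched for level. Counts without DOX replicate 2 stand beside 14.3% of all genes called lower and 12.3% called higher in that fit. Of 13 APC/C genes, including the activator gene Fzr1, 1 fell and none rose, with a median of −0.63. Anapc13 was the one, at −1.22 (SE 0.20, limma adjusted p = 0.0331). That call was lost with the replicate block, with arrays centred on their median, with the robust variance trend and without any 1 array other than DOX replicate 2. In the fit without DOX replicate 2, 4 APC/C genes fell and none rose, with a median of −0.23. They were Anapc13 (−1.09), Fzr1 (−0.55), Cdc26 (−0.37) and, named after its value was seen, Cdc23 (−0.37). Of 10 cohesin genes, which hold sister chromatids together, none passed with all arrays, adjusted or not (median −0.47), and none fell and 2 rose without DOX replicate 2 (median 0.06). The 2, named after their values were seen, were the loader Nipbl (0.87) and the releaser Wapl (0.38). Rad21 had a difference of −0.55 and Smc1a of −0.39. The centromere genes Cenpb and Cenpc1, whose proteins stay at centromeres throughout the cycle, had differences of −0.32 and −0.40 and did not pass, adjusted or not. Of 16 kinesins that carry cargo rather than serve the spindle, none passed with all arrays (median 0.03), and 1 was lower at an unadjusted p under 0.05. Among the mitotic kinesins 9 of 9 fell. Without DOX replicate 2, 1 transport kinesin fell and 5 rose. Kif3c and Kif13b, which had the smallest adjusted p with all arrays (−0.61 and 0.52), were among those 6, at −0.49 and 0.66 without DOX replicate 2. The other 4, named after their values were seen, were Kif1b (0.61), Kif3a (0.73), Kif3b (0.59) and Kif5b (0.58).

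Genes of the earlier cycle stages were read in the same way. Of 33 measured DNA replication genes 17 fell and none rose, with a median of −1.43, and 30 fell without DOX replicate 2. Mcm6 (−2.96, SE 0.17) and Mcm3 (−2.63, SE 0.17), subunits of the replicative helicase, and Rrm2 (−3.12, SE 0.20), a subunit of ribonucleotide reductase, were among them. Of 14 measured G1 cyclins, their kinases and CDK inhibitors none rose with all arrays, and Ccne2, which encodes cyclin E2, fell by 2.07. Their median was −0.61. When DOX replicate 2 was left out, 7 of the 14 fell and 2 rose, with a median of −0.33. The 2 that rose were the cyclin gene Ccnd2 (0.51, SE 0.11, limma adjusted p = 0.00603) and, named after its value was seen, the CDK inhibitor gene Cdkn2b (0.85, SE 0.11, limma adjusted p = 2.43e-04). Of 19 regulators in the DREAM and MuvB network, E2f8 (−1.83), E2f1 (−1.19) and Rbl1 (−1.33) fell, and none rose. These lists are described by their counts and medians, beside 2.26% of all genes called lower with all arrays and 14.3% lower and 12.3% higher without DOX replicate 2, and differences between lists were not tested.

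**Figure D4:**
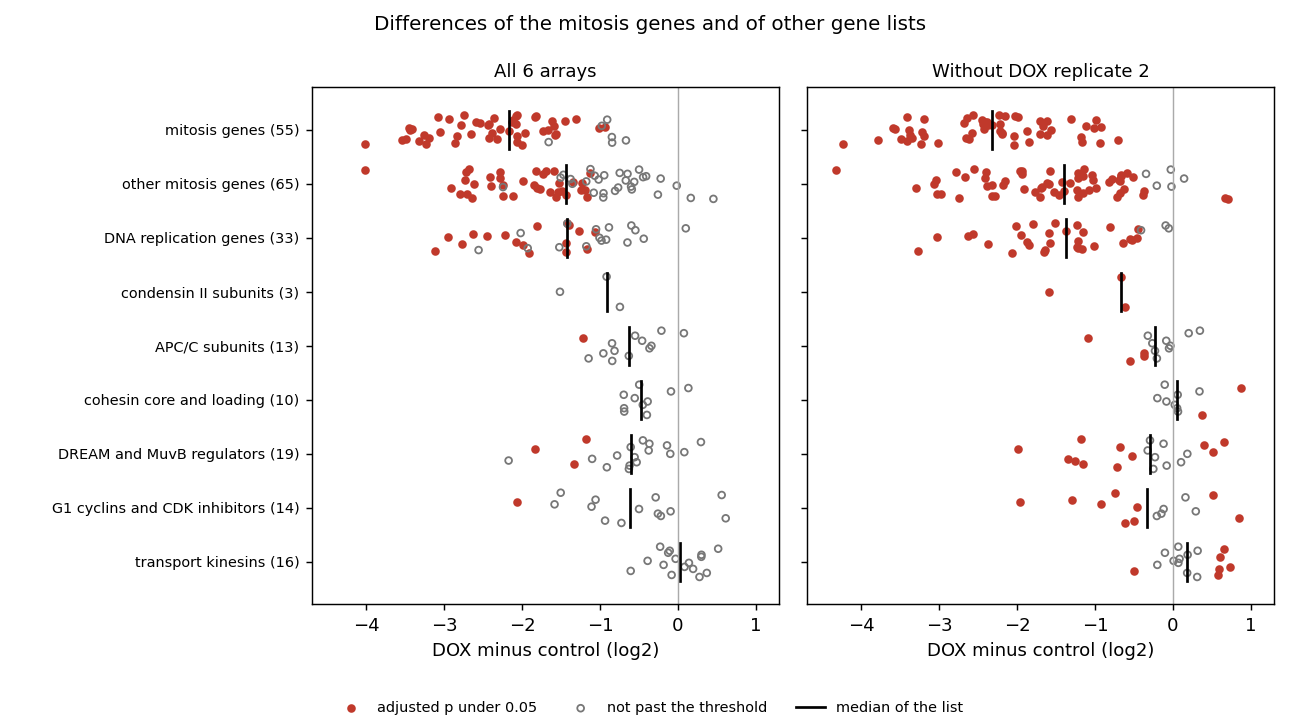
DOX minus control difference (x axis, log2) of each gene in the mitosis list and 8 further lists, with all 6 arrays (left) and without DOX replicate 2 (right). Filled red points passed the adjusted p threshold of 0.05, open grey points did not, and black bars are medians, at −2.17 and −2.32 for the mitosis genes and 0.03 and 0.19 for transport kinesins.

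The promoters of these genes were searched for the CHR core, TTTGAA or TTCGAA, and for CCAAT, the box bound by NF-Y. Both strands were searched, with every match counted where matches overlap. Since mitotic genes often carry a CHR, the shares below describe the genes chosen for the list and do not bear on their fall. TTCGAA reads the same on both strands. RefSeq promoter windows (GRCm38.p6) run from 250 bases before to 50 after a gene's start, and 48 of the 56 genes matched, with 53 windows. Aurkb, Cdc25c, Foxm1, Incenp, Kif20a, Smc4, Spc24 and Tpx2 did not match. The 3 windows below belong to the genes with the largest differences whose window holds both motifs, and show where the motifs lie. Capitals mark the motifs on either strand.
Top2a, chr11:99024140-99024439, minus strand: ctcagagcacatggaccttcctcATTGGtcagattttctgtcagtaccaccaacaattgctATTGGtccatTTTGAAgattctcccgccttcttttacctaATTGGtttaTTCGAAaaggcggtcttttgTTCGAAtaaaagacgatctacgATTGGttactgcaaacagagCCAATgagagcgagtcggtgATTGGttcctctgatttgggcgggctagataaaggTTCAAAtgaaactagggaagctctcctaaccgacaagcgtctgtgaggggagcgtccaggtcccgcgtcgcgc
Prc1, chr7:80294201-80294500, plus strand: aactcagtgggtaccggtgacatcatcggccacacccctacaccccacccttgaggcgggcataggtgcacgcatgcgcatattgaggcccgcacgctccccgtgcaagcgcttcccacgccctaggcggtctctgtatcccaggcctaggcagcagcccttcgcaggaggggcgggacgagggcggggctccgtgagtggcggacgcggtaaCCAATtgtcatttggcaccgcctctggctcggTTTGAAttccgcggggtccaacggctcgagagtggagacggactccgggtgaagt
Plk1, chr7:122159185-122159484, plus strand: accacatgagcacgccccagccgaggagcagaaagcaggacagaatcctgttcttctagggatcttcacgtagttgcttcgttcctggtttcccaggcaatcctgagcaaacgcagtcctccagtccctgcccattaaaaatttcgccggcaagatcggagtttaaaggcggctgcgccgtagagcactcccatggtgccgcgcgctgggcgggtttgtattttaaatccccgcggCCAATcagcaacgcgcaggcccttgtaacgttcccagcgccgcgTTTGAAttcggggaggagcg

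The Top2a window holds 4 CHR cores and 6 CCAAT boxes, most of the latter in the inverted form attgg. In the Prc1 window the CHR core begins 5 bases before the gene's start and the CCAAT box 37 bases before it. In the Plk1 window the CCAAT box begins 14 bases before the start and the CHR core at base 31 after it. A match is a description of the letters and shows no binding.

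Over the mitosis windows 37 of 53 (69.8%) held a CHR core, against 19.2% of all 32851 windows. CCAAT stood in 75.5% of mitosis windows and 37.4% of all windows, and both motifs in 60.4% of mitosis windows and 7.52% of all windows. The CHR cores lay close to the start, with 66.0% of mitosis windows and 8.59% of all windows holding one from 100 bases before the start onwards. In the first 25-base step from the start the shares with a CHR core were 30.19% of mitosis windows and 1.43% of all windows. The 30 measured genes with both motifs in 1 window had differences of −4.01 to −0.91 with a median of −2.43, and the 17 without had −3.20 to −0.67 with a median of −2.08, so the median was more negative with both motifs and the ranges overlapped. Neither the shares nor this difference was tested. Control levels of the genes with and without both motifs were not compared, although mitosis genes with higher control levels had more negative differences.

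**Figure D5:**
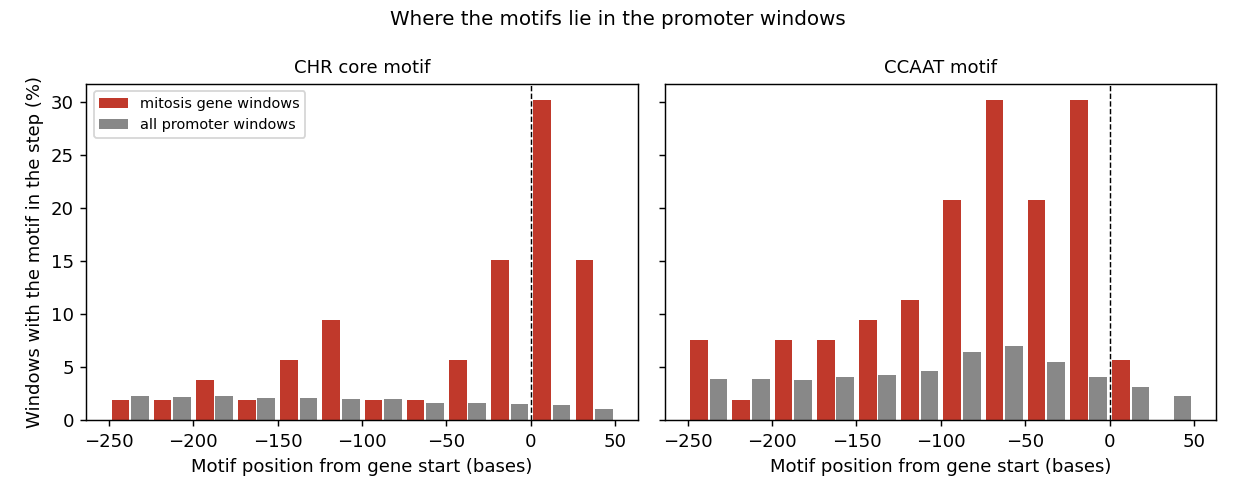
Share of promoter windows (y axis, %) with a CHR core (left) or a CCAAT box (right) in each step of 25 bases from the gene's start (x axis, bases, start at 0). Red bars are the 53 windows of mitosis genes and grey bars all 32851 windows, and the red CHR bars peak at 30.19% just after the start, where the grey bar stands at 1.43%.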

How the data were processed

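RNA of 6 organoid cultures was measured on 1-colour Affymetrix arrays. The authors deposited 1 log2 value per probe set and array, made with RMA and the affy package per the submitters' processing notes, which give no versions. They were used as deposited. RMA gives no detection calls. No scan date or batch is given. Of 34760 probe sets, 21640 have 1 gene symbol in the platform annotation, 1321 have several and 11799 have none here. The last 2 kinds were left out. Where a gene had more than 1 probe set, the brightest was kept.

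Groups came from the sample titles. Two-sided limma tests without covariates (version 3.58.1, under R 4.3.3) were adjusted over 19937 genes. The members and lists were chosen with earlier results of these data known, so their direction is not independent evidence. Values on every array are given for the 2 largest and the smallest differences in each role group and for members that did not pass, and up to 4 genes of each other list are named by adjusted p.

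No read depth applies to arrays. On simulated data with 19937 genes, 4% of 2-fold and 43% of 4-fold falls were called with all arrays, and 90% and 100% without DOX replicate 2. Each gene had the same pooled SD on every simulated array. With all arrays, the spread from DOX replicate 2 was thus put on the control arrays as well. Falls were placed only in genes above the median control level. These shares are therefore not the power of the real design. Alternatives were a block for the replicate number, each array left out in turn, a second quantile normalization, median centring, the mean over probe sets, filters on the lowest 25% and 50% of genes, a robust variance trend and array weights. Same-numbered DOX and control arrays deviated together with correlations of 0.117, 0.194 and 0.0852. One lies under 0.1, and the labels tie no number to a shared mouse or day, so the numbers were not taken as pairs.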

Additional observations from a re-analysis of the deposited data

How the results depend on the processing

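All 55 mitosis genes had negative differences in each of the 14 alternatives that kept them, none was called higher in any, and 13 were called in all alternatives that kept them. With the replicate number as a block, 32 mitosis genes, 26 genes of the other lists, and 159 lower and 3 higher of all genes were called. The numbers are not shown to pair the samples, and DOX replicate 3 correlated best with control replicate 1. Leaving out 1 array at a time gave 14 to 55 mitosis genes called lower, a median of −2.32 to −2.15, 61 to 2855 lower and 2 to 2454 higher of all genes, 11 to 130 called genes in the other lists, and an Erbb3 difference of −0.16 to 0.37. Array weights called all 55 mitosis genes, with 3752 lower and 3642 higher of all genes and 136 called in the other lists. A second quantile normalization called 52 mitosis genes and moved the split over all genes to 626 lower and 185 higher (22.8% higher), beside 450 and 24 (5.06%) as deposited. With the lowest 50% of genes left out, 39 mitosis genes remained, with a median of −2.36. The causes were not tested. The 6 mitosis genes not called with all arrays were called without DOX replicate 2 and with array weights, and 3 of them, Cdc25b, Espl1 and Spc24, also after the second quantile normalization. Espl1 and Spc24 were called with the robust variance trend as well.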

Other observations

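Without DOX replicate 2, 8 of the 19 DREAM and MuvB network genes fell and 3 rose, beside 14.3% of all genes called lower and 12.3% higher in that fit. The 3 higher genes, 15.8% of the list, are near the share over all genes, and they are named after their values were seen. The MuvB subunit gene Lin52 (0.52, SE 0.11, limma adjusted p = 0.00622), E2f3 (0.66, SE 0.15, limma adjusted p = 0.00687) and E2f5 (0.40, SE 0.11, limma adjusted p = 0.0192) rose, with differences of 0.08, 0.30 and −0.14 with all arrays, none of which passed. Mybl2, which encodes B-Myb, had a difference of −1.10 (SE 0.28, limma adjusted p = 0.134) with all arrays, which did not pass, and fell without that array (−1.35, SE 0.15, limma adjusted p = 9.28e-05). Rb1 read 7.77, 5.00 and 7.71 on the DOX arrays, against 9.05, 8.79 and 9.16 on the control arrays, so all DOX arrays lay below the controls and DOX replicate 2 far below the other DOX arrays. Its difference was −2.17 (SE 0.73, limma adjusted p = 0.259) with all arrays, which did not pass, and −1.26 (SE 0.13, limma adjusted p = 4.28e-05) without DOX replicate 2.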
